A study of Mus musculus with 2 samples.

Results

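The cells described here are cluster 3 of a subset of mouse submandibular gland cells that the deposited tables name after the platelet-derived growth factor receptor genes (Pdgfr) and Gli1. They were taken as the columns of that cluster in the deposited tables of cluster means, 1 column for each condition and 1 for both conditions together. The cluster held 82 cells of the mock library and 260 cells of the ligated library, 342 of the 2336 cells of the subset and of 15605 cells in all. Its markers were those of capillary endothelium, the lining of the smallest blood vessels, so it is called the endothelial-like cluster below.

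The study compared stroma-enriched single cells of female C57BL6/J mice at 14 weeks of age, 14 days after surgery. In the ligated group a metal clip closed the main duct of the submandibular and that of the sublingual gland, and in the mock group the ducts were found but not clipped. Per the labels' protocols, 2 glands gave each library, and both libraries were depleted of EpCAM-bearing epithelial cells, of Ter119-bearing red blood cells and of dead cells before droplets were made on the 10X Genomics system. There was 1 library per condition, so no difference between conditions has a replicate check and none was tested. The labels name no genetic change, lineage label or transgene in either group.

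Endothelial cells line vessels and carry the adhesion proteins PECAM1 and VE-cadherin (gene Cdh5) and the vascular endothelial growth factor (VEGF) receptor KDR. They secrete PDGF-B, which binds PDGFRB on mural cells, the pericytes and smooth muscle cells wrapped around the vessel. Fibroblasts of the surrounding stroma carry PDGFRA and make collagens, and Gli1 is a target of hedgehog signalling used as a mark of some stromal and mural cells. A cell that holds both endothelial RNA and RNA of a PDGF receptor is therefore unusual among vessel cells.

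A level is the authors' mean, over all cells in a cluster, of a gene's UMIs (unique molecular identifiers, which count captured RNA molecules) per 10000 UMIs of the cell. In a cell of the median recovered depth, 1 UMI is worth 1.04 in the mock cells and 1.09 in the ligated cells. Spread over the cluster, 1 UMI adds 0.0127 to the mock mean and 0.00419 to the ligated mean. A mean of 0.5 thus stands for about 39.4 UMIs in the mock cells and 119 in the ligated cells, with a counting error of 15.9% and 9.15%. These errors cover counting only, and the spread between animals is unknown.

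The cluster had the defining genes of endothelium at levels near those of the main capillary cluster. That reference is cluster 0 of all cells, with 5311 cells, which led in capillary markers. Pecam1 (chromosome 11:106654213-106715281 in RefSeq on GRCm38, the assembly also called mm10) stood at 13.7 in the mock cells and 12.3 in the ligated cells, against 14.5 and 18.3 in the capillary cluster. Cdh5 (chromosome 8:104101613-104144504) was at 8.26 mock and 6.83 ligated, against 9.02 and 9.15. Kdr (chromosome 5:75932827-75979072) was at 30.0 and 10.9, against 31.2 and 16.8. For each of these 3 genes the fibroblast-like cluster (cluster 0 of the subset) and the mural-like cluster (cluster 2 of the subset) were at 0.268 or less in both libraries.

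All 14 pan-endothelial markers were above 0 in both libraries, and their sum was 164 in the mock cells and 105 in the ligated cells. The capillary cluster reached 180.1 and 148, so the endothelial-like cluster held a smaller part of the capillary level in the ligated library than in the mock library. Over the markers with a capillary level of at least 0.1, the median was 90.0% of the capillary level in the mock cells and 73.9% in the ligated cells. The 10 genes that led the cluster over the other cells of the subset were, in order, Flt1, Rbp7, Kdr, Cyyr1, Btnl9, Ptprb, Podxl, Gpihbp1, Rgcc and Cdh5. None of these 10 is a marker of another cell type listed here. Since clusters were formed on these cells, the order is a description of the cluster and no test.

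Capillary genes were the best represented among vessel types. The 9 capillary markers summed to 193 in the mock cells and 87.1 in the ligated cells. Fabp4, a fatty acid binding protein of capillary endothelium, was at 112 mock and 36.9 ligated. Gpihbp1, which holds lipoprotein lipase on the capillary wall, was at 8.71 and 10.6, and Plvap, the protein of the diaphragms across fenestrae and caveolae, at 34.2 and 22.0. Aqp1, a water channel, stood apart from these, with 0.285 in the mock cells and 4.67 in the ligated cells, and it was likewise low in the mock capillary cluster at 0.874, against 6.61 ligated.

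Genes of other vessel types were present too. Cluster 4 of all cells, the second endothelial cluster of the glands, held arterial and lymphatic genes. The 13 arterial markers summed to 60.3 in the mock cells described here and 22.9 in the ligated cells, of which Cxcl12, a chemokine gene that the capillary cluster also carried, gave 52.8 and 12.6. Their median was 20.5% of the level in the second endothelial cluster in the mock cells and 25.4% in the ligated cells, and 193% and 216% of the level in the capillary cluster. By this measure the cells stood between both endothelial clusters in arterial genes. Gja4, a gap junction protein of arterial endothelium and mural cells, was at 1.19 and 1.90, against 0.547 and 0.880 in the capillary cluster. The more strictly arterial genes Gja5, a gap junction protein, and Bmx, a kinase, were at 0.0372 and 0.119 in the mock cells and at 0.0783 and 0.127 in the ligated cells. All 8 venous markers were above 0 in both libraries, with a sum of 3.48 mock and 4.68 ligated, against 3.53 and 5.06 in the capillary cluster and 7.63 and 4.66 in the second endothelial cluster. They included Nr2f2, a transcription factor that sets venous identity and is also made by stromal cells, at 1.54 and 1.44, and Ephb4, a receptor of venous endothelium, at 1.22 and 0.880. The venule genes Ackr1 and Selp did not exceed 0.0596. Of 7 lymphatic markers, 2 were above 0 in the mock cells and 5 in the ligated cells. Prox1, the transcription factor that sets lymphatic identity, was listed at 0 in the mock cells and at 0.00930 in the ligated cells, below the 0.0126 that 3 UMIs would give. Lyve1 and Reln were listed at 0 in both, and the lymphatic chemokine gene Ccl21a at 0 and 0.0499.

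Mural genes were detected together, at a small part of their level in mural-like cells. All 12 pericyte markers were above 0 in both libraries, and the median marker was at 8.64% of the mural-like level in the mock cells and 7.70% in the ligated cells. Rgs5, a regulator of G protein signalling abundant in pericytes, was at 10.2 mock and 5.77 ligated, against 0.185 and 0.284 in capillary cells and 84.0 and 73.1 in mural-like cells. Kcnj8 and Abcc9, the subunits of the pericyte ATP-sensitive potassium channel, were at 1.25 and 1.71 in the mock cells and at 1.03 and 0.829 in the ligated cells. Both were at 0.0728 or less in the capillary cluster. The 9 smooth muscle markers had a median of 5.23% of the mural-like level in the mock cells and 6.43% in the ligated cells.

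Fibroblast genes were also present, and more so in the ligated cells. All 12 fibroblast markers were above 0 in both libraries. Their median stood at 4.92% of the fibroblast-like level in the mock cells and at 22.8% in the ligated cells. Col1a1, a chain of collagen I, was at 1.11 mock and 9.87 ligated, where the capillary cluster had 0.0265 and 0.227. Dcn, the collagen-binding proteoglycan decorin, was at 9.01 and 20.9, where the capillary cluster had 0.0796 and 0.623. The plot of marker levels shows endothelial markers near the capillary level, and pericyte and fibroblast markers between the capillary level and that of their own cell type.

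**Figure D1:**
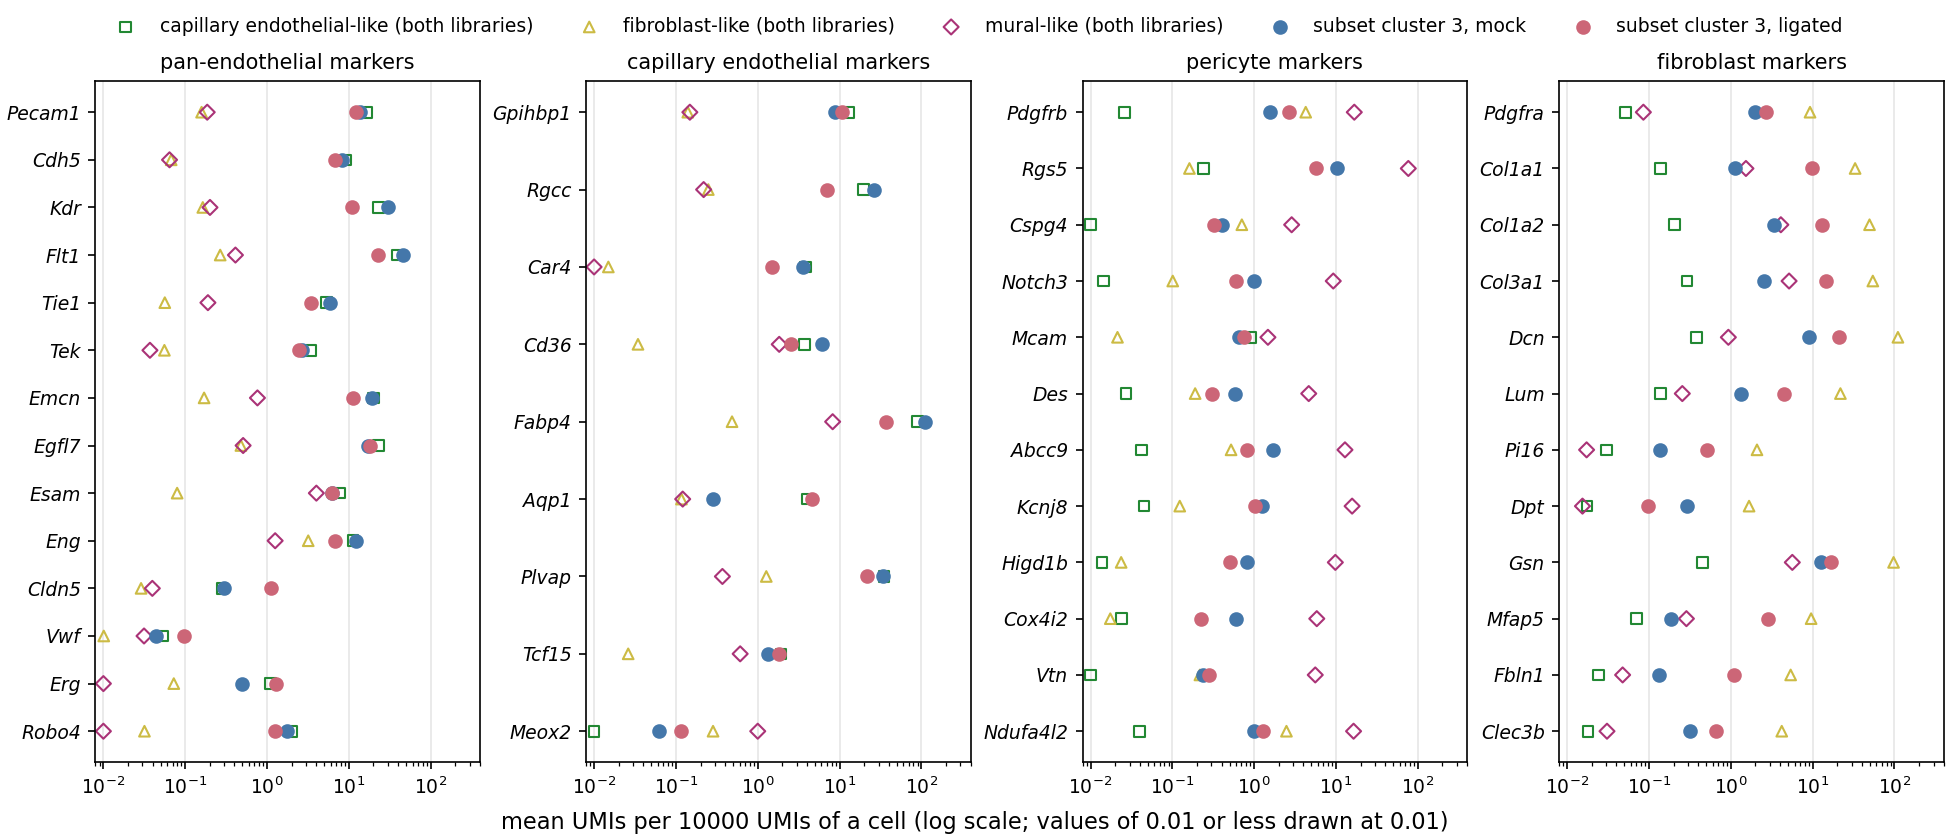
Markers of 4 cell types (rows) in the endothelial-like cluster, mock (blue) and ligated (red), and in the capillary, fibroblast-like and mural-like clusters with both libraries together (open symbols); the x axis is the mean UMIs per 10000 UMIs of a cell on a log scale. Pecam1 lies at 13.7 and 12.3 beside the capillary level, while Rgs5 (10.2 and 5.77) and Col1a1 (1.11 and 9.87) lie between the capillary level and that of the mural-like or fibroblast-like cells.

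Apart from haemoglobin, markers of the other cell types in the glands were low. The summed level of the T cell, natural killer cell, macrophage, B cell, neutrophil, ductal, acinar and Schwann cell lists ranged from 0 to 0.324 in the mock cells and from 0 to 1.79 in the ligated cells. The erythroid list summed to 26.6 mock and 1.37 ligated, most of it Hbb-bs in the mock cells. Together with the erythroid list, the markers with a library mean of at least 0.1 stood at a median of 0.920% of that mean in the mock cells (31 markers, 13 listed at 0) and at 7.62% in the ligated cells (34 markers, 1 listed at 0). By this median the ligated cells carried more of the library's other RNA. The mock median rests on 82 cells, in which 13 of the 31 markers were listed at 0. The haemoglobin genes Hbb-bs, Hba-a1 and Hba-a2 went the other way. Hbb-bs was at 19.7 against a library mean of 53.9 in the mock library, and at 0.726 against 5.76 in the ligated library. The pericyte and fibroblast markers were far above the median shares: Rgs5 was at 341% and 249.7% of its library mean and Dcn at 126% and 196%, mock and ligated.

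Of the genes that name the subset, each receptor gene was low in these cells compared with the cluster where it was highest. The subset bears their names, so their presence is given as a description. Pdgfra was at 1.96 in the mock cells and 2.67 in the ligated cells, against 11.5 and 8.90 in the fibroblast-like cluster. It was above the mural-like cluster, which had 0 and 0.125. Pdgfrb was at 1.58 and 2.68, against 15.2 and 17.5 in the mural-like cluster and 2.23 and 4.63 in the fibroblast-like cluster. Gli1 was at 0.0649 and 0.115, against 0.00133 and 0.00879 in the capillary cluster. The fibroblast-like cluster had 0.0506 and 0.0525 of Gli1, and the mural-like cluster 0.0835 and 0.0760. At 0.0127 per UMI, the mock Gli1 level of these cells rests on few UMIs. With 20.4% of the mock and 13.4% of the ligated cells of the subset, the cluster held 7.46% and 6.80% of its summed Pdgfra, 5.21% and 6.34% of its Pdgfrb and 20.6% and 23.6% of its Gli1.

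Together the 3 genes came to 3.60 in the mock cells and 5.47 in the ligated cells. A single UMI in a cell of the median recovered depth is worth about 1 on this scale, so the mean cell held a few UMIs of the 3 genes. Fibroblast-like cells had 13.8 and 13.6, mural-like cells 15.3 and 17.7, and capillary cells 0.0438 and 0.114. The subset held nearly all RNA of these genes. For Pdgfra, the cluster's share was 7.46% of the mock subset's sum and 7.45% of the mock library's. For Gli1 both mock shares were 20.6%. A level above that of capillary cells was thus largely fixed by the choice of the subset. Other parts of hedgehog signalling were scarce: of 13 genes of that list with a row, 1 reached 0.5 in either library. That gene was Gas1, a hedgehog co-receptor, at 0.746 mock and 1.26 ligated, against 12.9 and 4.91 in the fibroblast-like cluster.

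The next comparison asked in which clusters of all cells these cells had been placed. A gene seen as 1 UMI of 1 cell has the same summed value in the subset cluster and in the all-cells cluster that holds the cell. This gave 132 traced cells, beside 342 cells in the cluster. A trace needed only 1 gene, and a gene with 2 UMIs in 1 cell can give a total that is too low. A cell can therefore be counted again under a further total, so the numbers of traced cells are approximate. Of 24 traced mock cells, 11 lay in all-cells cluster 6, which led in pericyte and smooth muscle markers. A further 5 lay in the capillary cluster, 5 in the second endothelial cluster, 2 in all-cells cluster 3, which led in fibroblast markers, and 1 in cluster 10, which led in haemoglobin genes. The mural share was 45.8% (exact Clopper-Pearson 95% interval 25.6% to 67.2%). The cluster thus drew in part on cells that the clustering of all cells had put among mural-like and fibroblast-like cells.

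Of 108 traced ligated cells, 42 lay in the fibroblast-like cluster 3 of all cells (38.9%, interval 29.7% to 48.7%) and 29 in the mural-like cluster 6 (26.9%, 18.8% to 36.2%). The capillary cluster held 23 (21.3%, 14.0% to 30.2%) and the second endothelial cluster 8. Cluster 8, which held acinar genes beside others, had 5 and the T cell-like cluster 2 had 1. Traced cells are no random sample. A gene counts only if no other cell of the large cluster carries it, so cells of the capillary cluster, the largest of all, are traced less often, and deeper cells are traced more often.

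The recovered UMI totals of these cells lay between those of the mural-like and fibroblast-like clusters. Such totals are inferred and some can be false, since all-cells cluster 11 gave 60 totals for its 59 ligated cells. The median of the endothelial-like cluster was 9618 UMIs over 59 recovered mock totals and 9186 over 195 ligated totals. The capillary cluster had 8362 and 8507, from only 27 of 2363 mock and 145 of 2948 ligated cells, so its median is the least certain. Fibroblast-like cells had 12463 and 12091 (54 and 263 cells), and mural-like cells 5579 and 3381 (101 and 195 cells). Cells traced to the fibroblast-like cluster of all cells were the deepest among the ligated cells, with a median of 14743 UMIs, against 7702 for those traced to the capillary cluster and 7701 for those traced to the mural-like cluster. Set beside all recovered cells of the same all-cells cluster, traced cells were deeper for the mural-like cluster, at 12189 against 6530.0 mock and 7701 against 4948 ligated. They were less deep for the capillary cluster, at 6111 (5 traced cells) against 8362 mock and 7702 against 8507 ligated. For the second endothelial cluster they were deeper, at 9422 (5 traced cells) against 6477 mock and 7436 (8 traced cells) against 6370 ligated. For the ligated fibroblast-like cluster they had 14743 against 14266, and for the mock one, from only 2 traced cells, 19677.5 against 12821. No doublet caller can be run on tables of means, and whether the authors removed doublets is not given in the sources used here. Whether single droplets held RNA of 1 cell or of 2 was not tested.

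**Figure D2:**
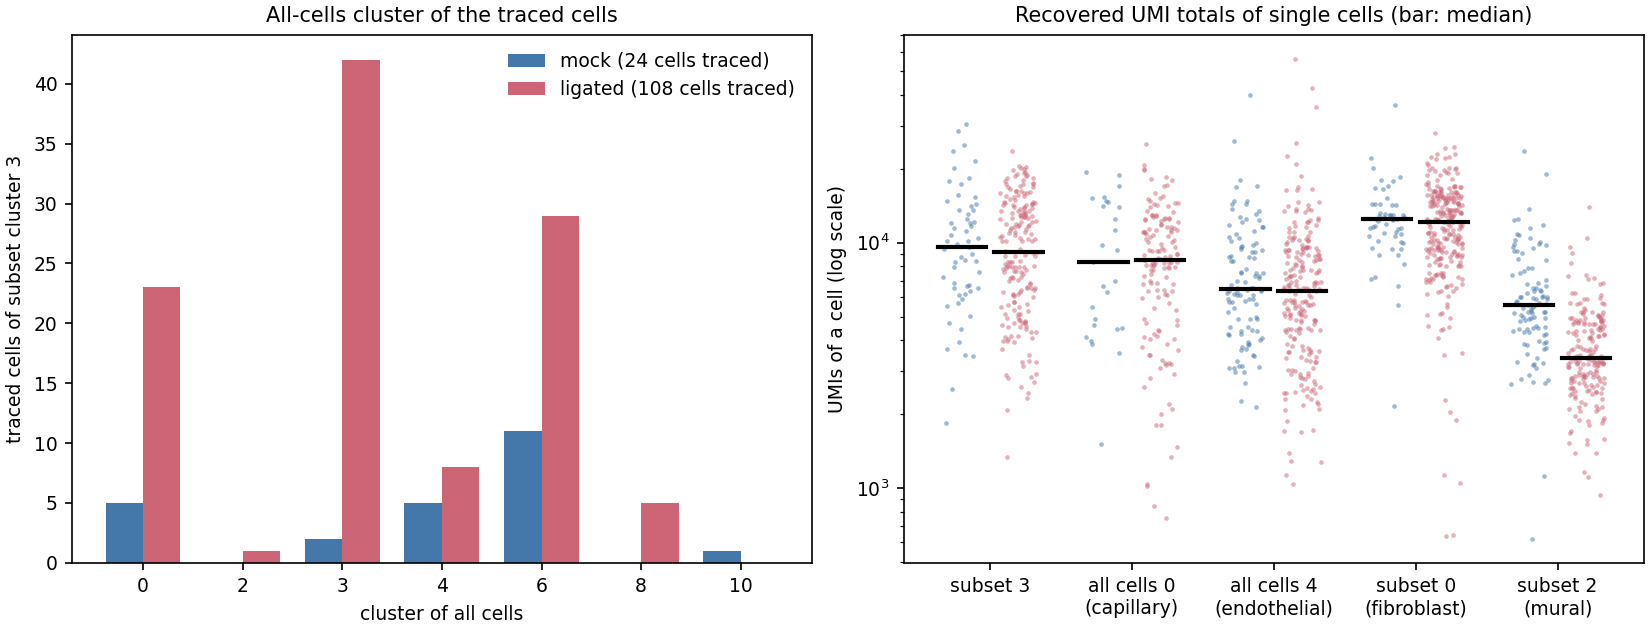
Left, number of traced cells of the endothelial-like cluster in each cluster of all cells, mock (blue, 24 cells) and ligated (red, 108 cells). Right, recovered UMI totals on a log scale, each point a recovered total and each black bar a median. Mural-like cluster 6 holds the most traced mock cells (11) and fibroblast-like cluster 3 the most traced ligated cells (42); the medians of the endothelial-like cluster are 9618 and 9186 UMIs.

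The summed expression sets a limit that does not depend on tracing. Cells placed in the 2 endothelial clusters of all cells cannot have brought more PDGF receptor RNA into the subset than those clusters hold. In the mock library those clusters held a summed Pdgfrb of 19.8, and the cells described here held 129.7, so at most 15.2% of their Pdgfrb lay in cells placed in the endothelial clusters. In the ligated library the limit was 23.2%. For Pdgfra the limits were 56.7% mock and 33.0% ligated. Most of the Pdgfrb RNA of the endothelial-like cluster was thus in cells that the clustering of all cells had placed outside the endothelial clusters.

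The converse limit holds for endothelial RNA. The fibroblast-like and mural-like clusters of all cells together held a summed Pecam1 that could account for at most 21.7% of the Pecam1 of the mock cells and 35.8% of that of the ligated cells. For Cdh5 the limits were 22.2% and 37.0%, and for Kdr 22.6% and 36.7%. The larger part of the endothelial RNA was therefore in cells that had been placed elsewhere, and 95.1% of the mock subset's Pecam1 and 76.9% of the ligated subset's Pecam1 lay in this cluster.

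The profile of the cluster was then compared with a weighted sum of 4 reference profiles of the same library: the capillary cluster, the second endothelial cluster, the fibroblast-like cluster and the mural-like cluster. Least squares with weights of at least 0 gave 79.6% capillary, 8.01% second endothelial, 5.08% fibroblast-like and 3.70% mural-like profile for the mock cells. For the ligated cells it gave 62.5%, 12.8%, 21.1% and 1.06%. The fibroblast-like weight was thus higher in the ligated library, and the summed endothelial weight lower, at 75.4% against 87.6%. The weighted sums held 99.5% of the squared values over genes in the mock cells and 99.9% in the ligated cells. The capillary reference contains some of the cells it is compared with, and all profiles share the genes every cell uses, which raises such a share.

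The plain fit follows the few most abundant genes, and the mural-like weight depended on that. With each gene divided by the square root of its mean, a weighting of the kind that suits counts, the mural-like weight was 6.0% mock and 4.03% ligated, and the fibroblast-like weight 3.95% and 21.2%. On marker genes alone the mural-like weight was 9.30% and 7.17%, and the fibroblast-like weight 5.72% and 21.8%. The mural-like weight was higher in the mock than in the ligated cells in the 3 fits, and the fibroblast-like weight higher in the ligated cells. The level expected of each gene below is the weighted sum from the square root weighting, a choice made after the values were seen. Its weights were fitted to the same levels it is set beside, so closeness between expected and observed levels is partly built in.

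Few genes departed from the weighted sum. Of 3812 genes at 0.5 or more in the ligated cells or in their weighted sum, 3789 were within 0.5 on the log2 scale. None was higher by 1 or more on that scale (0%) and 1 was lower (0.0262%). That gene was Ccl21a, at 0.0499 against an expected 1.24, most of which came from the lymphatic RNA of the second endothelial cluster, where it was at 7.56. The pericyte gene Rgs5 was at 5.77 against an expected 3.22. Pdgfrb and Pdgfra were at 2.68 against 1.72 and 2.67 against 1.94. The subset was named after these receptor genes, so an excess of them is partly built in.

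In the mock cells, with fewer cells behind the mean, 3624 of 3776 genes were within 0.5. There 6 genes were higher by at least 1 (0.159%) and 7 lower (0.185%). The 6 higher genes were Hbb-bs, Hba-a1, Hba-a2, Igfbp5, Pdgfra and Poglut1. Igfbp5, which encodes an insulin-like growth factor binding protein, was at 4.46 against an expected 0.953, and its highest reference was the fibroblast-like cluster at 19.5. Pdgfra was at 1.96 against 0.484. The subset was named after Pdgfra and held nearly all of its RNA, so this excess is partly built in. Poglut1, a glucosyltransferase that acts on Notch, was at 0.686 against 0.286.

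The 7 lower genes were Wfdc12, Ccl5, Lrg1, Nupr1, Cd52, Aqp1 and Insr. Wfdc12 was at 0.0510 against an expected 0.780 and Nupr1 at 0.246 against 0.901, 2 genes that were highest in the mock fibroblast-like cluster, at 7.05 and 8.24. The lymphocyte genes Ccl5 and Cd52 were at 0.0220 and 0.115 against 0.511 and 0.520, and were also below the mock capillary cluster, where they stood at 0.564 and 0.589. Lrg1, a secreted glycoprotein of venules, was at 0.113 against 0.543, and Insr, the insulin receptor, at 0.265 against 0.638. Poglut1, Wfdc12, Nupr1, Cd52 and Insr were named after their values were seen.

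**Figure D3:**
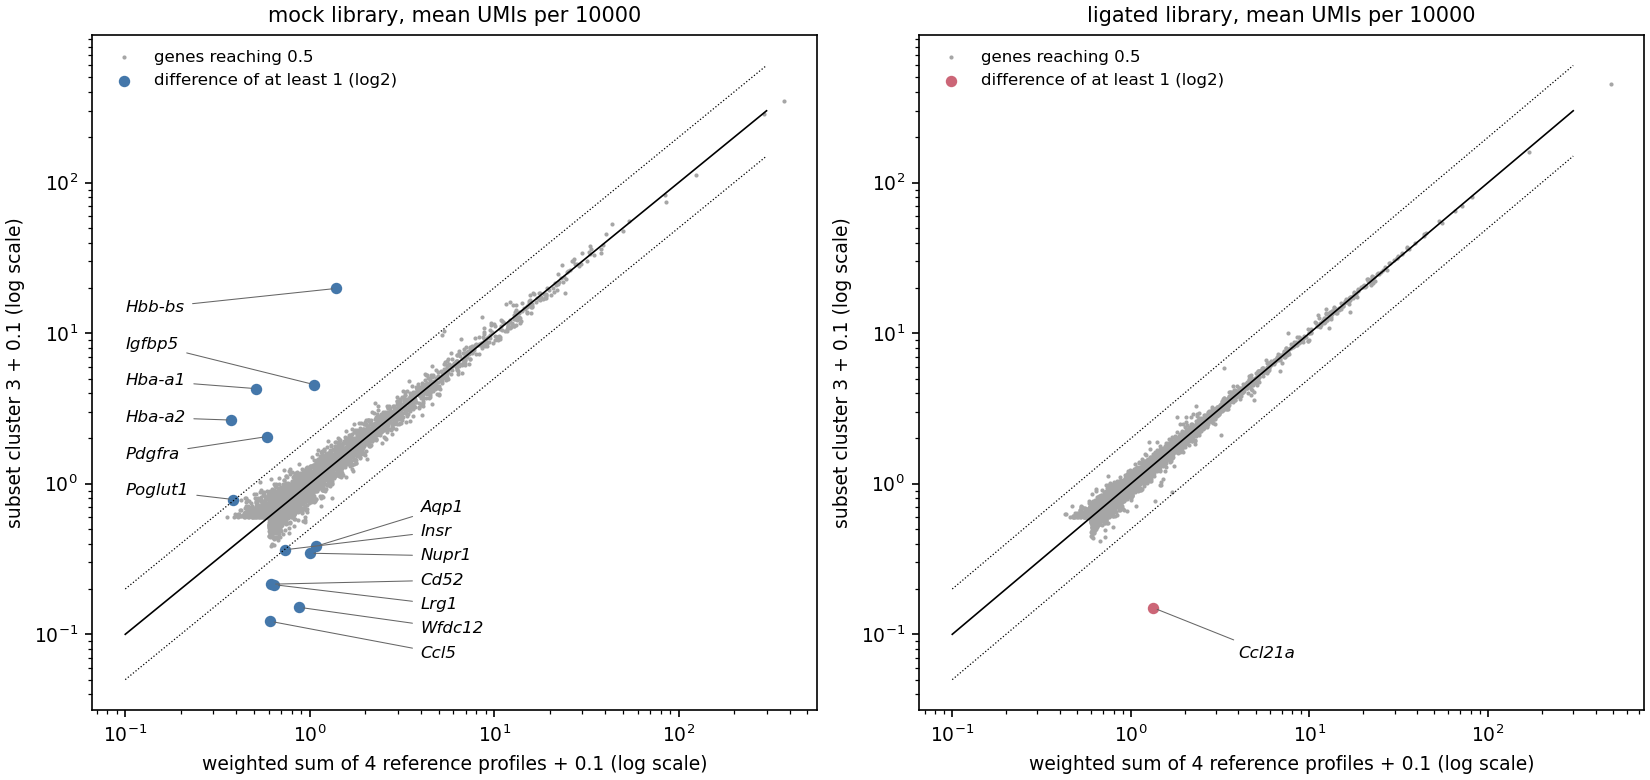
Level of each gene in the endothelial-like cluster (y axis) against the weighted sum of the capillary, second endothelial, fibroblast-like and mural-like profiles (x axis), in mean UMIs per 10000 plus 0.1 on log scales, mock on the left and ligated on the right; dotted lines mark a log2 difference of 1. Coloured points lie beyond those lines: 6 above and 7 below in the mock cells and only Ccl21a in the ligated cells.

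Few genes were higher in the cluster than in every reference. Among 3632 genes at 0.5 or more with both libraries together, 283 (7.79%) exceeded the highest of the 4 reference profiles at all, and 1 did so by 2-fold or more. That gene was Hbb-bs, adult beta globin, at 5.28 against 2.47 in the mural-like cluster, a log2 difference of 1.07. The alpha globins Hba-a2 and Hba-a1, near-identical copies between which reads can be split, came next, at 0.77 and 0.48. Of the 15 genes with the highest such ratio the other 12 ranged from 0.21 to 0.35, among them Zfp608, Zfp445, Psme4 and Socs3, the feedback inhibitor of cytokine receptors. Ligated cells were a share of 0.760 of the cluster, against 0.555 to 0.850 of the references (capillary lowest, fibroblast-like highest). A gene that differs between libraries can exceed a reference through these shares alone.

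The globin RNA was that of the mock cells. Hbb-bs was at 19.7 in the mock cells and 0.726 in the ligated cells, Hba-a1 at 4.19 and 0.277, and Hba-a2 at 2.55 and 0.270. One traced mock cell lay in cluster 10 of all cells, whose mock cells had a mean Hbb-bs of 2595. A single cell at that mean would add 31.6 to the mean of 82 cells. The part of that cell in the globin level was not tested. Alas2, which red cell precursors use for haem synthesis, was listed at 0 in both libraries. Among the mock mural-like cells Hbb-bs was at 6.81. Red blood cells were depleted by Ter119 beads in both libraries.

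The ligated and mock cells were compared gene by gene through the difference log2((ligated + 0.1)/(mock + 0.1)). A gene passed the size rule when the higher of its values was at least 0.5 and the difference was at least 1 in either direction. Of 4115 genes at 0.5 or more, 259 were higher in the ligated cells by this rule (6.29%) and 174 lower (4.23%). Without the 93 genes that were listed at 0 in every cluster of 1 library, 203 of 4022 were higher (5.05%) and 137 lower (3.41%). With a minimum of 2 in place of 0.5 the counts were 64 higher and 73 lower, so the excess of higher genes rested on genes of low level. These are counts of differences between 2 libraries, with no test.

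The genes on either side were highest in different reference clusters. Of the 203 genes higher in the ligated cells, 136 (67.0%) had the highest of their 4 reference levels in the fibroblast-like cluster, against 17.6% of all genes compared. Of the 137 genes lower in the ligated cells, 89 (65.0%) were highest in the capillary cluster, against 29.1% of all genes, and 0 in the fibroblast-like cluster. The difference expected from the weighted sums, which hold 3.95% fibroblast-like profile in the mock cells and 21.2% in the ligated cells, is therefore given beside the gene groups. Because the weights were fitted to these same levels in each library, such an expected difference is a description and no independent check. The part of the fibroblast-like share in these differences was not tested.

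Over all genes compared, 10.5% passed the size rule in either direction, the share to set beside each list count below. Of the gene lists, fibrillar matrix had the most genes on the higher side. Of 18 genes of the list that reached 0.5, 16 were higher in the ligated cells, 1 was lower and 1 did neither. The median difference was 1.93, against -0.04 over all genes at 0.5 or more, 2.01 in the weighted sums and 0.62 in the capillary cluster. Col3a1, the chain of collagen III, was at 2.55 mock and 14.4 ligated, a difference of 2.45 where the weighted sums gave 2.37. Lox, the enzyme that crosslinks collagen, was at 0.0379 and 0.735, a difference of 2.60 against an expected 2.35. Mgp, matrix Gla protein, an inhibitor of calcification, was at 4.67 and 70.3, and at 0.0876 and 3.14 in the capillary cluster.

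Timp3, an inhibitor of matrix proteases, went the other way from the rest of its list, with 28.2 mock and 13.4 ligated, a difference of -1.06 against -0.85 in the capillary cluster. Basement membrane genes, which endothelium makes itself, had no member past the size rule. Of 12 such genes at 0.5 or more, 0 were higher and 0 lower, and their median difference was -0.23. With 10.5% of all genes past the rule in either direction, 0 of 12 is near that share. Col4a1 and Col4a2, the collagen IV chains of the capillary wall, were at 25.8 and 14.9 in the mock cells and at 22.9 and 13.5 in the ligated cells. The perlecan gene Hspg2 had 9.32 and 4.88, a difference of -0.92.

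Among genes seen in both libraries, Spp1 and Thbs4 had the largest differences upward. Spp1 encodes osteopontin, a secreted matricellular protein, and shares exon sequence on its strand with another annotated gene. It was at 0.0465 in the mock cells and 5.52 in the ligated cells, a difference of 5.26, while the fibroblast-like cluster had 1.10 and 30.6 and the capillary cluster 0.00378 and 0.295. Thbs4, thrombospondin 4, was listed at 0 in the mock cells and stood at 3.18 in the ligated cells, with 0.294 and 10.1 in the fibroblast-like cluster and 0.0162 and 0.0767 in the capillary cluster. Cilp, a cartilage matrix protein, was at 0.375 and 5.19, Timp1, a protease inhibitor, at 0.0398 and 1.45, and Mfap5, a microfibril protein, at 0.186 and 2.87. A difference for a gene listed at 0, such as Thbs4, depends on the added 0.1 and is given only in the plot. In both libraries these 5 genes were higher in the fibroblast-like cluster than in the capillary cluster.

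Among the other 10 of the 15 largest differences upward, most were seen across the cell types of the glands. Atp6v0c, Nme2, Rnasek, Ccdc85b, Rpl13a, Gzmc and Klk1 passed the size rule upward in all 9 all-cells clusters that had 50 or more cells in both libraries, as they did here. Nme2, Rnasek and Rpl13a overlap an exon of a further gene of their strand in GENCODE release M21, and their counts are uncertain for that reason. Klk1, a kallikrein of duct cells, was at 0.0750 mock and 1.73 ligated, and Gzmc, a granzyme of killer lymphocytes, was listed at 0 and stood at 0.991. After a share of the library mean was subtracted from each value, the differences of Klk1, Gzmc and Ccl5 were 0. The chemokine gene Ccl5 had 0.0220 and 2.01 and passed in 7 of the 9 clusters. Mgp and Aqp1, described above, complete the 15, with differences of 3.88 and 3.63, and passed in 8 and 5 of the 9.

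The VEGF receptors of endothelium were lower in the ligated cells. Kdr, the main one, was at 30.0 mock and 10.9 ligated, a difference of -1.45, against -1.21 in the weighted sums and -0.89 in the capillary cluster. Flt1, the decoy VEGF receptor, had 45.7 and 22.6, a difference of -1.01 against -0.83 and -0.55. Nrp1, the VEGF co-receptor, had 18.0 and 8.48 (-1.07), and Esm1, a proteoglycan of VEGF-stimulated endothelium, 2.07 and 0.800 (-1.27). These 4 were the lower genes among 11 of the VEGF, angiopoietin and apelin list at 0.5 or more.

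In the same list 2 genes were higher. Aplnr, the apelin receptor of venous and growing endothelium, was at 0.469 mock and 1.29 ligated (1.29), and the lymphatic growth factor gene Vegfc at 0.165 and 0.592 (1.38). The angiopoietin receptor gene Tek was at 2.70 and 2.47, and the lymphatic VEGF receptor gene Flt4 at 0.832 and 0.805, neither past the rule. The median difference of the list was -0.43, against -0.23 in the weighted sums and 0.06 in the capillary cluster. Kdr alone of these passed with a pseudocount of 1.

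Of 4 PDGF genes at 0.5 or more only the endothelial ligand passed the rule. Pdgfb, which recruits pericytes, was at 8.01 mock and 2.49 ligated, a difference of -1.64, and at 8.23 and 3.31 in the capillary cluster (-1.29). Pdgfra and Pdgfrb differed by 0.43 and 0.72. Among 9 Notch genes at 0.5 or more, 2 were higher and 1 lower. The ligand gene Dll4, expressed by arterial and tip cells, was at 0.285 and 0.756 (1.15), and of the fringe glycosyltransferases that tune Notch, Mfng was at 0.143 and 0.661 (1.65) and Lfng at 1.23 and 0.351 (-1.56). Of the Notch genes 0 passed with a pseudocount of 1.

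Genes of endothelial identity were near the share over all genes. Of 15 endothelial transcription factors at 0.5 or more, 1 was higher and 0 lower, where 10.5% of all genes passed in either direction, and the median difference was 0.01. Erg, an ETS factor that maintains endothelial identity, was the one past the rule, at 0.497 mock and 1.28 ligated, and did not pass with a pseudocount of 1. Its relative Fli1 was at 2.10 and 2.12, Sox17 at 1.30 and 1.88, and Sox18 at 1.08 and 1.10. Klf2 and Klf4, factors induced by blood flow, were at 11.4 and 6.32 in the mock cells and at 7.92 and 4.38 in the ligated cells, differences of -0.52 and -0.52.

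Junction genes were likewise near a median difference of -0.03 over 14 genes. Cldn5, the tight junction claudin of endothelium, was at 0.294 mock and 1.12 ligated (1.63), and Cgnl1, a junctional scaffold protein, at 0.117 and 0.636 (1.76). The adhesion molecule gene F11r was lower, at 1.86 and 0.743 (-1.22), and with a pseudocount of 1 0 junction genes passed. Pecam1 and Cdh5 differed by -0.15 and -0.27. Of 3 leukocyte adhesion genes at 0.5 or more only Podxl, podocalyxin, passed the rule, at 15.3 and 6.22 (-1.29), while the selectin genes Sele and Selp did not exceed 0.0596.

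Capillary transport genes split. Among 10 genes of lipid and solute transport at 0.5 or more, 4 were lower: Fabp4 at 112 mock and 36.9 ligated (-1.60), its relative Fabp5 at 7.77 and 2.28 (-1.73), the fatty acid transporter gene Cd36 at 6.12 and 2.52 (-1.25), and Car4, a carbonic anhydrase, at 3.61 and 1.49 (-1.22). In the capillary cluster these 4 differed by -1.60, -1.62, -1.17 and -0.83. The 3 higher genes were Aqp1, the lipoprotein receptor gene Scarb1 at 2.10 and 4.89 (1.18), and Lpl, lipoprotein lipase, at 0.868 and 5.87 (2.63). Lpl was at 25.6 and 25.7 in the fibroblast-like cluster and at 0.0696 and 0.186 in the capillary cluster.

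Genes of caveolae had a median difference of -0.67 over 8 genes, with 1 past the rule. It was Ehd4, a membrane remodelling ATPase, at 12.1 mock and 4.40 ligated (-1.44). Cav1, the main caveolin, was at 7.15 and 3.93 (-0.85). Among 12 vasoactive genes, 2 were lower. Edn1, the constrictor endothelin, was at 1.42 and 0.353 (-1.74), and Calcrl, the adrenomedullin receptor, at 3.20 and 1.34 (-1.20). Nos3, endothelial nitric oxide synthase, was at 0.672 and 0.465. Of the vasoactive genes 0 passed with a pseudocount of 1.

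Genes of coagulation and fibrinolysis lay on both sides. Thbd, thrombomodulin, the thrombin-binding anticoagulant of the vessel wall, was at 9.40 mock and 2.81 ligated (-1.71), and at 9.35 and 3.95 in the capillary cluster (-1.22). Among 4 genes of coagulation and fibrinolysis at 0.5 or more it was the 1 lower gene, and 2 were higher. Plat, the tissue plasminogen activator, was at 0.239 and 0.869 (1.52), and Serpine2, a protease inhibitor, at 0.384 and 1.61 (1.82). Serping1, the C1 inhibitor of the complement system, was at 1.02 and 3.86 (1.82). It was highest in the fibroblast-like cluster, at 15.6 ligated, and the capillary cluster had 0.128.

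**Figure D4:**
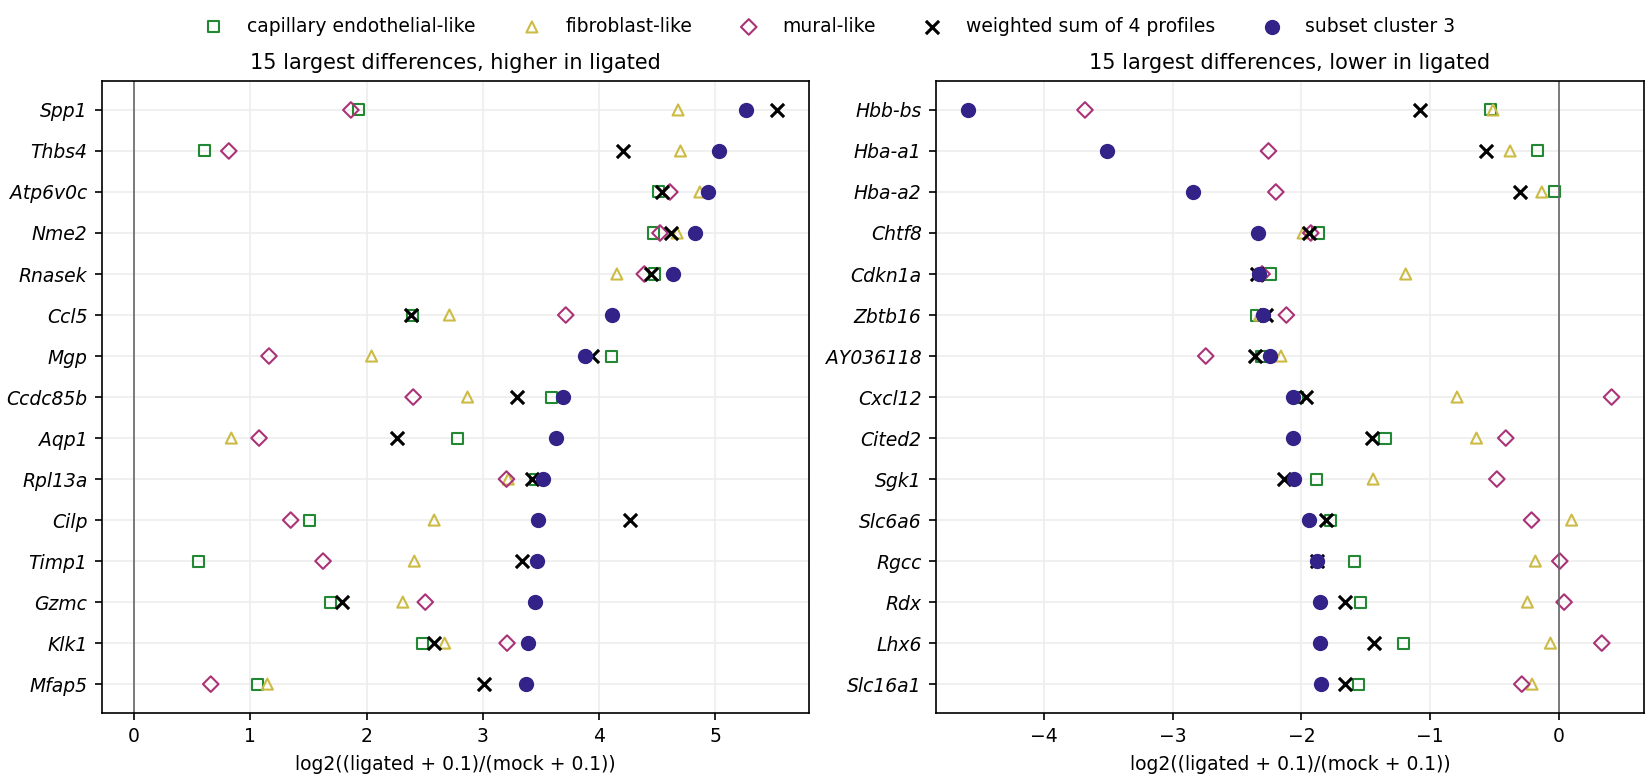
Differences log2((ligated + 0.1)/(mock + 0.1)) of the 15 genes with the largest differences in each direction in the endothelial-like cluster (filled circles), beside the weighted sum of the 4 profiles (crosses) and the capillary, fibroblast-like and mural-like clusters (open symbols). Spp1 lies at 5.26 in the cluster and 4.68 in the fibroblast-like cluster, Rgcc at -1.88 in the cluster and -1.58 in the capillary cluster.

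The largest differences downward, after the globins, included several genes that are abundant in capillary endothelium. Cxcl12, the chemokine that draws CXCR4-bearing leukocytes, was at 52.8 mock and 12.6 ligated (-2.06), and at 45.8 and 11.1 in the capillary cluster. Rgcc, a cell cycle regulator of capillary endothelium, was at 26.1 and 7.03 (-1.88), and at 31.0 and 10.3 in the capillary cluster. Cdkn1a, the cell cycle inhibitor p21, was at 3.67 and 0.653 (-2.33), where the capillary cluster had 4.36 and 0.844. The 2 clusters share cells and libraries, so these are values side by side and not separate evidence.

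The glucocorticoid-induced genes Sgk1, a kinase, and Zbtb16, a transcription factor, were at 9.84 and 0.811 in the mock cells and at 2.29 and 0.0850 in the ligated cells, differences of -2.06 and -2.30. Slc6a6, the taurine transporter, was at 15.4 and 3.94 (-1.94), and Slc16a1, a lactate transporter, at 0.892 and 0.176 (-1.85). The transcriptional regulators Cited2 and Lhx6 had differences of -2.06 and -1.85, and Rdx, the membrane linker radixin, of -1.86. Chtf8 had 0.672 and 0.0530 (-2.34). AY036118 and Lhx6 each share exon sequence with another annotated gene on their strand, and AY036118 was lower in all 9 of the compared all-cells clusters.

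Part of the mural contractile genes were lower in the ligated cells. Of 9 contractile genes at 0.5 or more, 4 were lower, 0 higher and 5 neither, with a median difference of -0.82, against -1.03 in the weighted sums and 0.03 in the capillary cluster. Acta2, smooth muscle actin, was at 1.49 mock and 0.598 ligated (-1.19), and at 28.6 and 12.8 in the mural-like cluster. Myh11, smooth muscle myosin, was at 1.19 and 0.287 (-1.74), and at 14.9 and 4.42 in the mural-like cluster. Tagln and Tpm2, an actin-binding protein and a tropomyosin, differed by -1.60 and -1.02. Cald1 and Mylk, caldesmon and myosin light chain kinase, did not pass, with differences of 0.20 and -0.10. With a pseudocount of 1, 0 of the contractile genes passed.

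Genes used to read a passage from endothelium to mesenchyme passed the rule in both directions. Of 8 such genes at 0.5 or more, 1 was higher and 2 lower, and the median difference was 0.55, against 0.63 in the weighted sums and 0.60 in the capillary cluster. Vim, vimentin, was at 3.31 mock and 7.04 ligated (1.07), against 0.70 in the weighted sums. The transcription factor genes Snai2 and Zeb1 differed by -0.69 and 0.68, with -0.50 and 0.84 in the capillary cluster. Acta2 and Tagln were the lower ones. In this list 0 genes passed with a pseudocount of 1. Over 17 genes of TGF-beta and BMP signalling the median difference was -0.31. The BMP targets Id1, at 11.5 and 4.46 (-1.35), and Smad6, at 0.515 and 0.178 (-1.14), were the 2 genes past the rule. That is 2 of 17, near the 10.5% of all genes that passed in either direction.

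Immune lists held genes on both sides of the size rule. Of 27 interferon response genes at 0.5 or more, 4 were higher and 1 lower, with a median of 0.24, against 0.33 in the capillary cluster. Over all genes at 0.5 or more, 10.5% passed in either direction. Irf7, a transcription factor of the response, was at 0.850 mock and 2.00 ligated (1.15), and Rsad2, viperin, went the other way at 10.8 and 3.99 (-1.41). None of 14 MHC class I genes passed the rule, and their median was 0.24. Both MHC class II genes at 0.5 or more were higher, Cd74 at 0.0465 and 0.874 and H2-Aa at 0.0658 and 0.501. The macrophage markers C1qa and C1qb were higher as well, at 0.0702 and 0.0823 mock and 0.380 and 0.429 ligated, and the part of macrophage RNA in this was not tested. After a share of the library mean was subtracted the difference of Cd74 was -0.07, against 2.73. That of H2-Aa was 1.01, against 1.86, but its higher value no longer reached 0.5. Neither MHC class II gene thus met the size rule. With a pseudocount of 1, 2 interferon response genes and 0 MHC class II genes passed.

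Of the remaining lists, growth factor binding stood highest. Among 7 genes of insulin-like growth factors and their binding proteins, 4 were higher, with a median of 1.12. Igfbp3, made by capillary endothelium, was at 7.28 mock and 15.9 ligated (1.12) and at 8.69 and 23.4 in the capillary cluster, while Igfbp7, a vessel wall protein, was at 83.0 and 80.2. Of 15 immediate early genes, which also answer to tissue dissociation, 1 passed the rule: Zfp36 at 1.81 and 0.795 (-1.10). Proliferation genes were scarce, and 4 of 20 cell cycle genes reached 0.5. The 12 mitochondrially encoded genes had a median of 0.22, with mt-Atp8 alone past the rule, at 4.47 and 1.28.

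The other lists had these medians: -0.02 over 9 chemokine and cytokine genes, -0.35 over 7 genes of hypoxia and glycolysis, -0.43 over 13 guidance genes and -0.14 over 6 integrin genes. Within them Cxcl10, an interferon-induced chemokine, was at 0.0114 and 0.623 (2.70), the ephrin gene Efna1 at 0.915 and 2.09 (1.11), and the semaphorin gene Sema3c at 2.17 and 0.765 (-1.39). No hypoxia or integrin gene passed the rule, and with 7 and 6 genes this is near the 10.5% of all genes that passed. The plot of list medians shows the fibrillar matrix list farthest to the right and the contractile list farthest to the left, in the cluster and in the weighted sums.

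**Figure D5:**
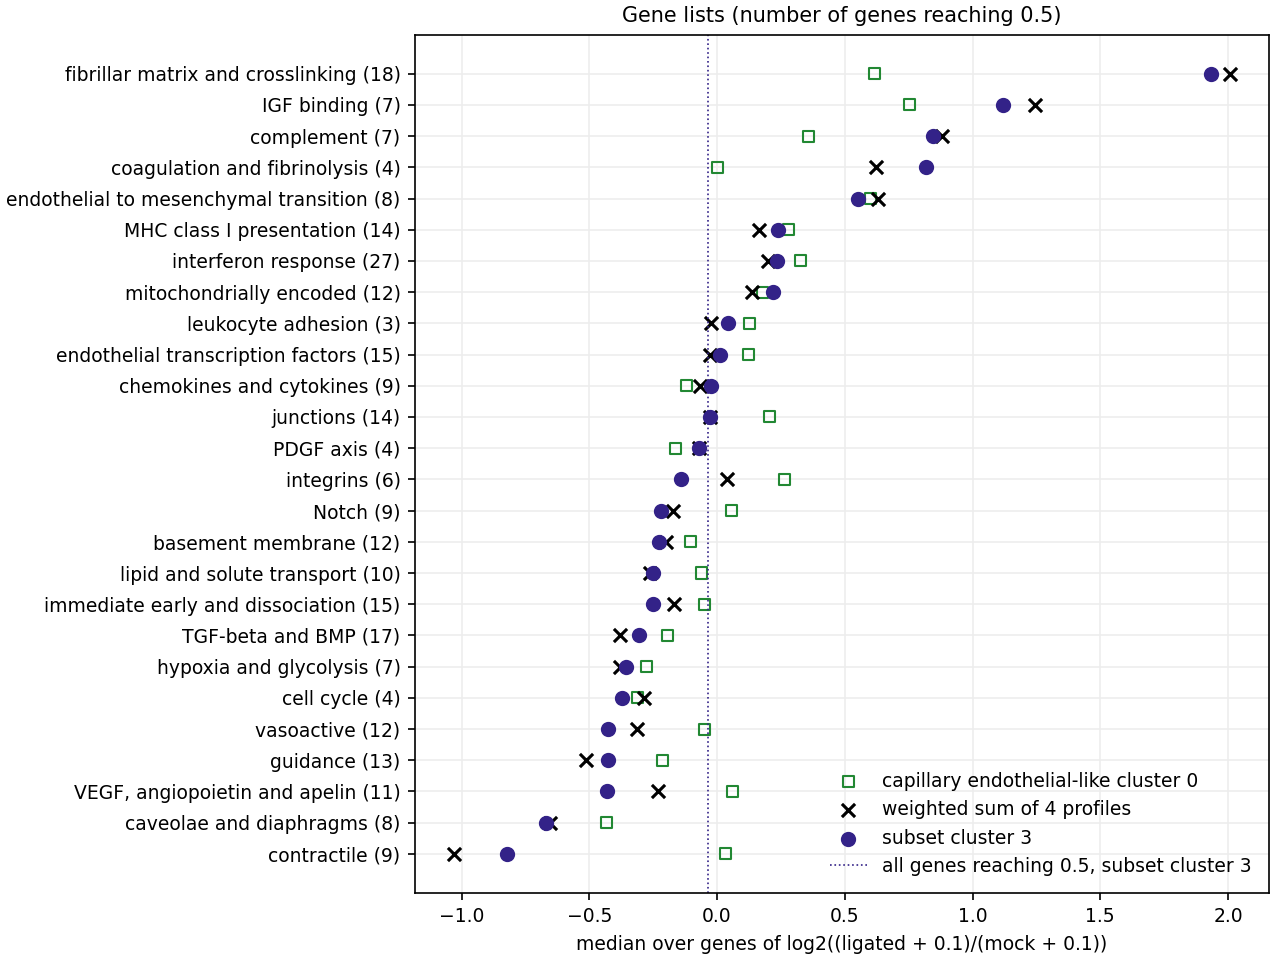
Median over genes of log2((ligated + 0.1)/(mock + 0.1)) for each gene list (rows, with the number of genes at 0.5 or more) in the endothelial-like cluster (filled circles), in the weighted sum of the 4 profiles (crosses) and in the capillary cluster (open squares); the dotted line is the median over all genes. The fibrillar matrix median is 1.93 in the cluster, 2.01 in the weighted sum and 0.62 in the capillary cluster.

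The cells of the cluster were 1.95% of the mock library (82 of 4199 cells, exact 95% interval 1.56% to 2.42%) and 2.28% of the ligated library (260 of 11406, 2.01% to 2.57%). Of the subset they were 20.4% in the mock library (interval 16.6% to 24.7%) and 13.4% in the ligated library (11.9% to 15.0%). The library shares have intervals that overlap and the subset shares have intervals that do not, but with 1 library per condition neither compares the conditions. The intervals cover counting error only, and the bead depletions can set such shares.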

How the data were processed

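The authors deposited 4 tables of cluster means, for all cells and for the subset, each joint and split by condition. The values are, by their own sums, linear means over cells of UMIs per 10000: every column sums to 10000, and the joint means equal the cell-weighted split means within 2.4e-07. Per the submitters' processing notes, Cell Ranger 6.0.1, Seurat and mm10 were used, with their roles not given. No counts per cell or barcodes were used here, so no count model was fitted and barcodes shared between libraries were not analysed here. All value columns had a sample or were joint (0 without). Dates had replaced 21 gene names, restored from the same rows of the joint tables.

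Cell numbers were recovered from joint and split means (tolerance 2e-09). UMI totals and tracing came from genes seen as 1 UMI of 1 cell (tolerances 1e-06 and 1e-09). A recovered total needed 2 genes, while tracing needed 1 and did not leave out totals that are fractions of others. The scripts (Python 3.11.15, SciPy 1.17.1) were tested on simulated cells. The difference understates low genes because of the pseudocount of 0.1. Genes named were the list and marker genes, the 15 largest differences each way among genes seen in both libraries, and the 15 genes highest over the references. Of 513 list and marker genes, 4 had no row. The cluster, its marker genes and the lists were chosen with earlier results of these data known. Alternatives changed the pseudocount, the minimum, the size, the scaling, the references, the fit weights and the tracing tolerance.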

Additional observations from a re-analysis of the deposited data

How the results depend on the processing

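The number of genes past the size rule was 433 (259 higher, 174 lower in ligated). It was 133 (76 and 57) with a pseudocount of 1, 945 (631 and 314) with no minimum, 137 (64 and 73) with a minimum of 2, and 165 (118 and 47) with a size of 2. The other settings, a pseudocount of 0.01, centring, subtraction of a share of the library mean and leaving out genes at 0 in 1 library, stayed within 1.5 times.

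The count over every reference was 1, and 0 with a fold of 4 or with every other cluster as a reference. The mural-like weight moved from 3.70% mock and 1.06% ligated to 6.0% and 4.03% (square root weights) and 9.30% and 7.17% (markers only), and the second endothelial weight of the mock cells to 0 on markers only; the cause was not tested. Shares of traced cells stayed within their intervals at a looser tolerance. Cd74 reversed from 2.73 to -0.0689 after subtraction. With a pseudocount of 1, 264 named differences stayed on their side of the size rule and 50 no longer reached it; after subtraction these were 308 and 4 (Klk1, Gzmc, Ccl5 and Vim). With a pseudocount of 1 no gene of the Notch, junction, vasoactive, contractile, guidance, immediate early, MHC class II, endothelial transcription factor or mesenchymal transition lists passed. The fibrillar matrix median was 1.16 with a pseudocount of 1.

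No paired analysis was possible because each condition had 1 library. With 82 mock cells, genes under 0.5 rest on few UMIs, and differences between animals, operations and libraries cannot be told apart.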
